A study of Mus musculus with 30 samples.

Results

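Jmj-null mouse embryonic stem (ES) cells at day 6 of differentiation were set against Jmj-Fl/Fl ES cells at day 4, 2 days chosen because primitive streak genes are high on both, although they are also high in Fl/Fl at day 6. The comparison took 7 of the 30 arrays of the series, 5 of null cells at day 6 and 2 of Fl/Fl cells at day 4, and it asked which genes still differ when streak stage is set against streak stage. The Fl/Fl cells carry floxed Jmj alleles and are called wild type in the labels, and the null cells carry inactivated Jmj. Both were started on differentiation by withdrawal of LIF, the cytokine that keeps mouse ES cells undifferentiated, and no further agent is named. RNA was taken at days 0, 2, 4, 6 and 8, and the labels call the arrays biological replicates without saying whether they came from separate clones or cultures, so p-values measure the spread between arrays, part of which may be technical. Genotype and day of culture both differ in this comparison and cannot be told apart within it.

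Jmj (Jumonji) is now named Jarid2 and encodes a protein without demethylase activity that binds Polycomb repressive complex 2 (PRC2), which methylates histone H3 at lysine 27 and keeps developmental genes silent, mostly at CpG-rich promoters. When ES cells leave self-renewal they pass through a primed state like the epiblast of the embryo, marked by Fgf5 and Otx2. Part of them then switches on genes of the primitive streak, the structure in which epiblast cells become mesoderm and endoderm, under Wnt and Nodal signals. ES cells that lack PRC2 function are known to leave the pluripotent state late or incompletely.

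Values are deposited intensities on a linear scale, and differences were computed on log2(intensity + 4) with 1 probe set per gene, the one with the highest mean over all arrays, which gave 18194 genes. Each difference is null minus Fl/Fl, with its standard error (SE) and a p-value from limma's moderated test, two-sided, adjusted over all 18194 genes, and a gene counted as called when the adjusted p was under 0.05. Folds come from the same scale and understate the change of genes near the floor, where intensities lie around 10. In RNA from whole cultures, fewer cells of a type and less RNA per cell cannot be told apart.

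Null day 6 arrays stood apart from each other before any gene was tested. Replicates 3, 4 and 5 had intensities of 648, 594 and 680 for Eif2s3y, a gene of the Y chromosome, against 217 and 13 in replicates 1 and 2 and 182 and 176 in the Fl/Fl day 4 arrays. The first 3 also showed Tmem87a at 247, 311 and 280, where the other 4 arrays lay between 9 and 12. Meg3, an imprinted noncoding RNA, was at 21, 33 and 88 there, against 1221 and 287 in null replicates 1 and 2 and 928 and 1009 in Fl/Fl. Their 3' to 5' ratio for actin, a measure of RNA integrity and labelling, was 1.288 to 1.313, below the 1.545 to 1.565 of replicates 1 and 2 and the 1.526 to 1.573 of Fl/Fl. Whole profiles followed the same division. The root mean square log2 difference over all genes was 0.342 between null replicates 1 and 2, between 0.211 and 0.258 among replicates 3 to 5, and between 0.446 and 0.493 across the division, while the pair of Fl/Fl day 4 arrays differed by 0.23. Replicates 1 and 2 were also unlike each other in Eif2s3y and Meg3, and they form 1 set here only as the arrays without high Eif2s3y. These sets of arrays are not groups of the study, and results are given below for all 5 null arrays first and then for each set at day 6, with the other groups whole. The part of these differences in any result was not tested. Array mean intensity ran from 349.3 to 358.8 over the 7 arrays.

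The deleted gene gave no check of the labels. Jarid2, at its brightest probe set, read 709 and 710 in Fl/Fl day 4 and 1206, 1191, 781, 927 and 926 in null day 6. Every null array lay above both Fl/Fl arrays, and the difference of 0.48 (SE 0.238) did not pass, with a limma adjusted p of 0.561. At the same day the difference was called, with 0.91 at day 4 and 0.89 at day 6, null again higher. All 3 Jarid2 probe sets were higher in null day 6, by 0.617, 0.482 and 0.606, and where they lie relative to the deletion was not stated in what was used here.

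Each null day 6 array was closer to Fl/Fl day 4 than to any other Fl/Fl day. The root mean square log2 difference from the Fl/Fl day 4 mean was 0.447, 0.363, 0.399, 0.393 and 0.39 for replicates 1 to 5. The next nearest Fl/Fl day gave 0.641 for replicate 1 and 0.476 for replicate 2, both at day 6, and 0.608, 0.609 and 0.611 for replicates 3, 4 and 5, at day 6 for replicate 3 and at day 2 for the other two. Day 4 was also nearest for 5 of 5 arrays when only the 6750 genes with a mean intensity above 100 were used. No array reached the 0.23 that separated the Fl/Fl day 4 replicates from each other.

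**Figure D1:**
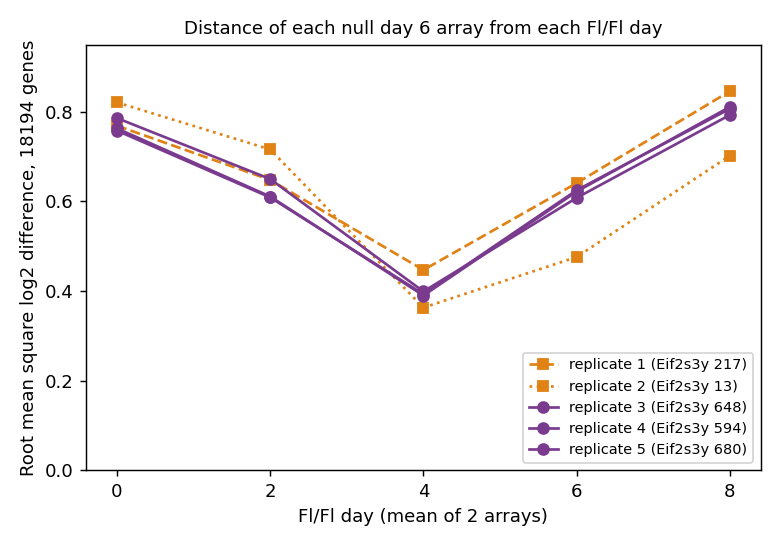
Root mean square log2 difference over 18194 genes (vertical axis) between each of the 5 null day 6 arrays and the mean of the 2 Fl/Fl arrays of each day (horizontal axis, days), 1 line per null array, circles for arrays with Eif2s3y above 500. All 5 lines have their lowest point at Fl/Fl day 4, between 0.363 and 0.447.

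The days were chosen for their streak genes, so the levels of these genes describe that choice. By limma 0 of 31 measured were called (unadjusted p under 0.05 for 3 higher and 1 lower), against 0.473% of all genes. Mixl1, a homeobox factor of the streak, read 1964 and 2110 in Fl/Fl day 4 and 5127, 3095, 2001, 1312 and 1970 in null day 6, against a mean of 9.8 in null day 4 and 1750.5 in Fl/Fl day 6. The Fl/Fl pair lay inside the null range, with a log2 difference of 0.25 (SE 0.801, limma adjusted p = 1). Eomes, a T-box factor needed for mesoderm and endoderm, read 1216 and 1094 in Fl/Fl and 5060, 3168, 1198, 1374 and 1180 in null. Here replicates 1 and 2 were far above the control and replicates 3 to 5 at its level. Lhx1, a LIM homeobox factor of the anterior streak, read 292 and 443 in Fl/Fl and 4360, 2489, 905, 525 and 617 in null. All 5 null arrays lay above Fl/Fl, and the difference of 1.80 (SE 1.01) had an adjusted p of 0.641.

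The streak genes also ordered the null arrays. Gsc, a homeobox factor of the organizer, read 98 and 126 in Fl/Fl, 472 and 376 in null replicates 1 and 2, and 65, 39 and 55 in null replicates 3 to 5. Aplnr, a receptor of early mesoderm, read 309 and 401 in Fl/Fl, 2036 and 1081 in null replicates 1 and 2, and 178, 129 and 176 in replicates 3 to 5. Both genes were thus above Fl/Fl in the first set and below it in the second. Fgf8, a signal of the streak, followed the same order at 367 and 386 in Fl/Fl against 665, 511, 279, 272 and 249 in null. Cyp26a1, which degrades retinoic acid, read 490 and 703 in Fl/Fl and 1999, 1474, 587, 435 and 510 in null. In Fl/Fl day 6 the means were 106.5 for Gsc, 790 for Aplnr, 203.5 for Fgf8 and 1147.5 for Cyp26a1, and for Eomes and Lhx1 they were 1794.5 and 597.5. Over all 5 null arrays the differences of Gsc, Aplnr, Fgf8 and Cyp26a1 were between -0.05 for Fgf8 and 0.49 for Cyp26a1, and each had an adjusted p of 1. With replicates 3 to 5 as the null day 6 group and the other groups whole, differences were -1.04 for Gsc, -1.12 for Aplnr and -0.49 for Fgf8. Their limma adjusted p was 0.529, 0.734 and 0.986. When only null arrays with Eif2s3y above 500 were kept at every day, the spread estimated over the series changed too. The same 3 differences then had a limma adjusted p of 0.00365, 0.00192 and 0.0288 and were called, so their calls depended on the fit.

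**Figure D2:**
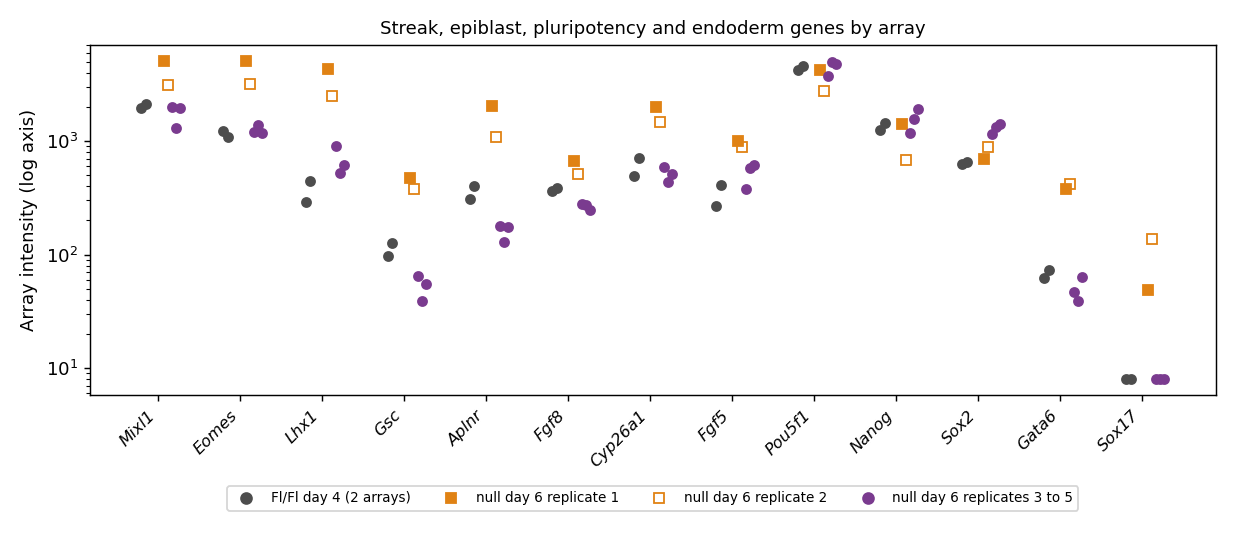
Intensity (log axis) of 13 streak, epiblast, pluripotency and endoderm genes in each array, grey for the 2 Fl/Fl day 4 arrays, orange squares for null day 6 replicates 1 (filled) and 2 (open), purple circles for null replicates 3 to 5. Null replicates 1 and 2 lie above both Fl/Fl arrays for Mixl1, Eomes, Lhx1, Gsc, Aplnr, Fgf8, Cyp26a1, Gata6 and Sox17, while null replicates 3 to 5 lie below both for Gsc, Aplnr and Fgf8.

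Among central pluripotency factors, Pou5f1 and Nanog overlapped between the groups and Sox2 did not. Pou5f1 (Oct4), the central factor of the pluripotent state, read 4243 and 4592 in Fl/Fl day 4 and 4197, 2737, 3756, 4981 and 4795 in null day 6. Nanog read 1261 and 1435 against 1418, 684, 1182, 1551 and 1928. The groups overlapped for both genes. Their log2 differences were -0.14 (SE 0.316) and -0.07 (SE 0.424), each with an adjusted p of 1, where at day 6 in both genotypes null exceeded Fl/Fl by 3.19 for Pou5f1 and 2.78 for Nanog. Sox2 read 623 and 654 in Fl/Fl and 689, 883, 1150, 1321 and 1428 in null, so that all null arrays were higher, with an adjusted p of 0.38 (log2 0.72, SE 0.288).

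Over all genes, 86 of 18194 were called between null day 6 and Fl/Fl day 4, which is 0.473% of the genes tested. Of these, 15 were higher in null (0.0824%) and 71 lower (0.39%). The count was 2112 (11.6%; 4.18% higher and 7.43% lower) for null day 4 against the same Fl/Fl day 4 arrays. It was 1806 (9.93%; 3.47% higher and 6.46% lower) for the same null day 6 arrays against Fl/Fl day 6. Against Fl/Fl of days 0, 2 and 8 the null day 6 arrays gave 5077 (27.9%), 3346 (18.4%) and 4507 (24.8%). Between days 4 and 6, 2358 genes (13%) differed within null and 629 (3.46%) within Fl/Fl. These comparisons share arrays with each other, so their counts are set side by side and are not independent. Over the 6750 genes above 100, the median size of the log2 difference was 0.191 for the stage-matched pair, 0.359 at day 4 and 0.334 at day 6. The change from day 4 to day 6 differed between the genotypes in 378 genes (2.08%) by limma's test of that difference.

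**Figure D3:**
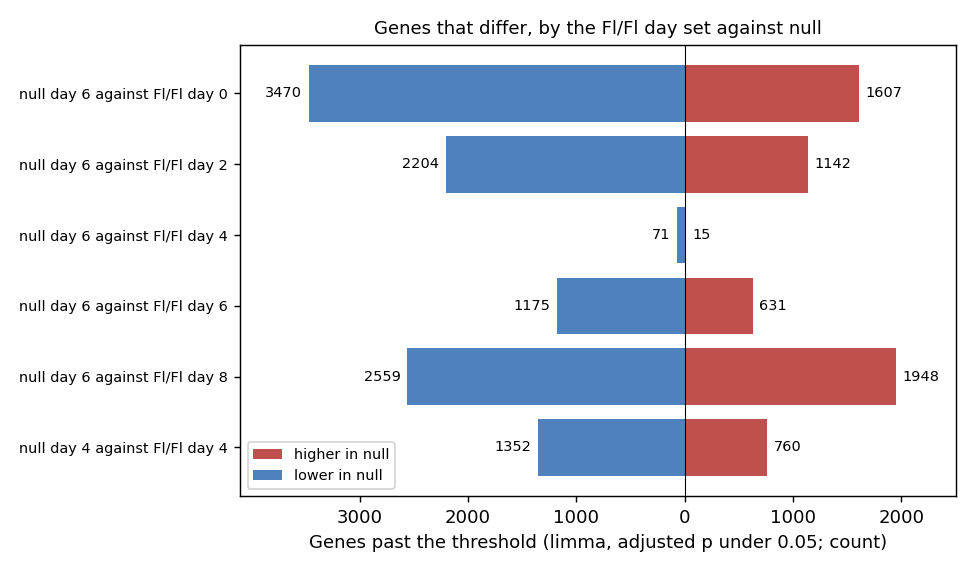
Number of genes past the threshold (limma, adjusted p under 0.05, of 18194 tested), to the right for genes higher in null and to the left for genes lower, for null day 6 against each of the 5 Fl/Fl days and for null day 4 against Fl/Fl day 4. Null day 6 against Fl/Fl day 4 has 15 higher and 71 lower, the fewest of the 6 comparisons.

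The count depended on which arrays were used. Leaving out each of the 7 arrays in turn gave between 66 and 174 called genes, with 174 when Fl/Fl day 4 replicate 2 was left out and 93 without replicate 1. With replicates 3 to 5 as the null day 6 group and the other groups whole, 225 genes were called (1.24%), 56 higher (0.308%) and 169 lower (0.929%), and they included 74 of the 86. With replicates 1 and 2 in the same way 152 were called (0.835%), 94 higher (0.517%) and 58 lower (0.319%), and they included 47 of the 86. Both fits were added after the first counts were seen. When null arrays were divided by the same limit at every day, which also changes the spread pooled over the series, 1838 genes (10.1%) were called with arrays above 500 and 69 (0.379%) with the rest. The same division above 500 moved Fl/Fl day 6 against Fl/Fl day 4, which holds no null array, from 629 called genes to 2348. A total of 22 of the 86 were called in all 7 leave-one-out fits.

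Among the genes higher in null, Otx2 had the largest difference. Otx2, a homeobox factor of the epiblast and anterior neural plate, read 152 and 288 in Fl/Fl day 4 and 1891, 1515, 654, 968 and 905 in null day 6. The lowest null array was above the highest Fl/Fl array, with a log2 difference of 2.38 (SE 0.494), 5.19-fold, limma adjusted p = 0.0282. In Fl/Fl its mean was 57 at day 0, 633 at day 2 and 220 at day 4, whereas null cells stood at 539, 1645, 1596 and 1187 on days 0, 2, 4 and 6. No Fl/Fl day therefore reached the null day 6 mean. RefSeq lists 4 start sites for Otx2 and the 250 bases upstream of the outermost one, chr14:48667645-48667894 on the minus strand of GRCm38.p6, hold 6 CpG pairs. The other 3 windows hold 8, 14 and 9. The bases of the outermost one are shown as the promoter window of the gene with the largest rise, in lower case with each CG in capitals.

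Otx2: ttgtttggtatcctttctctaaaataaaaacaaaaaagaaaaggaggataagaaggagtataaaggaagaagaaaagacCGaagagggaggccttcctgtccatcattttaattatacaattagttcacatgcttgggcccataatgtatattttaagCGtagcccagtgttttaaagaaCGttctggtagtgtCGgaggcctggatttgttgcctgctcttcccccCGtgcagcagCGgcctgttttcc

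The other epiblast genes of the list fixed for this comparison did not pass. Fgf5, a growth factor of the primed epiblast, read 266 and 413 in Fl/Fl and 1002, 889, 378, 581 and 617 in null. Null replicate 3 lay between the Fl/Fl values, and the difference of 0.97 (SE 0.518) had an adjusted p of 0.61. Dnmt3b, a de novo DNA methyltransferase, read 2207 and 2308 against 5025, 4412, 2349, 3003 and 3110, with every null array higher and an adjusted p of 0.673. Pou3f1 read 501 and 442 against 295, 397, 724, 754 and 803, with null replicates 1 and 2 below and replicates 3 to 5 above both Fl/Fl arrays. Of 21 epiblast genes measured, 1 was called (Otx2), where 0.473% of all genes were. In null day 4 against Fl/Fl day 4, 10 were higher and 1 lower (4.18% and 7.43% of all genes), and in null day 6 against Fl/Fl day 6, 9 were higher (3.47% of all genes).

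Enpp3, an ectonucleotidase of the cell surface, read 40 and 49 in Fl/Fl day 4 and 150, 76, 166, 286 and 280 in null day 6 (log2 1.87, SE 0.392, adjusted p = 0.0295). It peaked at day 2 in both genotypes, at means of 706 in Fl/Fl and 1257 in null. Lrrn4, a leucine-rich repeat membrane protein, read 207 and 285 against 580, 762, 981, 1141 and 1163 (1.86, SE 0.416, adjusted p = 0.047). Its mean did not exceed 559 on any Fl/Fl day, and was 925 in null day 6.

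Pik3ip1, an inhibitor of PI3 kinase, read 17 in both Fl/Fl arrays and 69, 107, 32, 51 and 47 in null, a log2 difference of 1.53 (SE 0.343, adjusted p = 0.0482). Its means were higher at later days in both genotypes, at 153 in Fl/Fl day 6 and 194.5 in Fl/Fl day 8, and against Fl/Fl of the same day null day 6 differed by -1.37 on the log2 scale. Adamts15, a secreted metalloprotease, read 18 and 22 against 90, 52, 64, 43 and 46 (1.35, SE 0.218, adjusted p = 0.00328). In Fl/Fl it stayed between 9.5 and 20 on all 5 days, and in null its mean was 59 at day 6 and at most 26.2 on the other days. Ccnjl, a cyclin-related gene, read 75 and 79 against 182, 144, 140, 184 and 174 (1.05, SE 0.175, adjusted p = 0.00388), with an Fl/Fl maximum of 125.5 at day 6.

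Several other rises were small and evenly spread. Tyro3, a receptor tyrosine kinase, read 137 and 174 in Fl/Fl day 4 and 280, 287, 216, 276 and 285 in null day 6, 1.71-fold (adjusted p = 0.0393). It was the only called gene that was also called in the same direction at both day 0 and day 2, where null means were 196 and 329 against 98.5 and 195.5 in Fl/Fl. Glul, glutamine synthetase, read 812 and 882 against 1395, 1324, 1238, 1104 and 1269 (0.57, SE 0.0977, adjusted p = 0.00458). Zfp647, Cst3, Fam104a and Jpt1 rose by 0.71, 0.67, 0.59 and 0.49 on the log2 scale, with adjusted p between 0.0393 and 0.0495 for these 4 and Tyro3. Cst3 encodes the protease inhibitor cystatin C.

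None of the 12 rises named was called in every fit that left out an array. Without Fl/Fl day 4 replicate 1 all 12 lost the call. Otx2 also lost it without null replicate 1, and 8 others, all but Adamts15, Ccnjl and Glul, lost it without 3 or more further arrays. For the 12 genes the highest adjusted p over the 7 left-out arrays ranged from 0.0594 for Ccnjl and 0.0646 for Adamts15 to 0.422 for Otx2 and 0.514 for Tyro3 and Fam104a. In that fit the remaining Fl/Fl array is assumed to vary like the other groups. With replicates 3 to 5 as the null day 6 group 8 of the 12 were called, and Otx2 (0.0686), Pik3ip1 (0.0808), Tyro3 (0.0702) and Jpt1 (0.074) were not. With replicates 1 and 2 the called genes were Otx2 (0.0119), Pik3ip1 (0.00349), Adamts15 (0.00145), Ccnjl (0.0241) and Glul (0.003). When only the 2 groups were fitted limma called none of the 12.

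Among the genes lower in null, most were at or near the floor of the array in null cells. The median intensity of the 71 genes was 52.5 in Fl/Fl day 4 and 18 in null day 6, and 42 of them had a null day 6 mean under 25. For the 15 higher genes the medians were 155.5 and 268.8. The groups did not overlap in 70 of the 71 and in 15 of the 15. Over all genes, 12.5% had groups that did not overlap, 8.83% with null lower and 3.71% with null higher.

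Rgs17, a regulator that shortens G protein signals, read 130 and 105 in Fl/Fl day 4 and 16, 19, 16, 11 and 20 in null day 6. The 2 groups were separated by a wide gap, 6.00-fold (log2 -2.59, SE 0.155, limma adjusted p = 1.63e-09). Its Fl/Fl means over days 0 to 8 were 8.5, 9, 117.5, 14.5 and 11, and its null means 8.33, 8.8, 10.6, 16.4 and 16.5. The high day 4 mean of Fl/Fl thus had no counterpart on any null day measured. Ppp2r2c, a regulatory subunit of protein phosphatase 2A, read 128 and 100 in Fl/Fl and 19, 19, 17, 19 and 20 in null (-2.36, SE 0.128, adjusted p = 4.86e-10). Its Fl/Fl means were 16.5 at days 0 and 2, 114 at day 4, 67 at day 6 and 16.5 at day 8, and no null mean exceeded 23.5. Fry, a large scaffold protein of the furry family, read 110 and 135 against 16, 17, 22, 18 and 21 (-2.47, SE 0.348, adjusted p = 0.00071), and outside Fl/Fl day 4 its group means lay between 10 and 24.

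These 3 genes had their highest mean in Fl/Fl day 4, and their promoter windows are shown to let their sequences be compared. Each is the 250 bases before the RefSeq start site in GRCm38.p6, with each CG in capitals, at chr10:5922401-5922650 on the minus strand for Rgs17, chr5:36868260-36868509 on the plus strand for Ppp2r2c and chr5:150259680-150259929 on the plus strand for Fry. The windows hold 27, 23 and 8 CpG pairs.

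Rgs17: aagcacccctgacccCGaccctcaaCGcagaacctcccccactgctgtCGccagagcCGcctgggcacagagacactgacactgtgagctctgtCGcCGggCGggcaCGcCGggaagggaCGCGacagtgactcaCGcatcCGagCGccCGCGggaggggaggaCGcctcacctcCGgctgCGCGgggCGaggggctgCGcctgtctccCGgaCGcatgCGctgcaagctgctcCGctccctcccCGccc

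Ppp2r2c: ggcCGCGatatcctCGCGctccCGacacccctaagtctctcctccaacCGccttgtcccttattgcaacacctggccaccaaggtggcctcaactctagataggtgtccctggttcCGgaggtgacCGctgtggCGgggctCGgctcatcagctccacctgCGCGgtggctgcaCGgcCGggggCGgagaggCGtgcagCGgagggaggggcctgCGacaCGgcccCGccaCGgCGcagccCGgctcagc

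Fry: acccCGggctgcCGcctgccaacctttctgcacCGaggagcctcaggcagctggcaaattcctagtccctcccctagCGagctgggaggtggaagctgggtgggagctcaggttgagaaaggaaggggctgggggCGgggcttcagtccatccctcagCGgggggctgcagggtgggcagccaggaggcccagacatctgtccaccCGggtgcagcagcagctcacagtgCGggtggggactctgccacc

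Base composition of the called genes was set beside that of all genes. In windows from 250 bases before to 50 after the start site, median GC content was 61.2% for the 62 of 71 lower genes found in RefSeq, 60.3% for 13 of 15 higher genes and 58.7% for 14453 of all 18194 genes. The median ratio of observed to expected CpG was 0.631, 0.592 and 0.657 in the same order. No test was made of these medians.

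Tnfsf9, the ligand of the immune receptor 4-1BB, had the largest fall. It read 199 and 244 in Fl/Fl day 4 and 20, 50, 18, 8 and 12 in null day 6, a 10.1-fold difference (log2 -3.33, SE 0.37, adjusted p = 3.49e-05). Fl/Fl went from 6 at days 0 and 2 to 221.5, 456.5 and 353.5 at days 4, 6 and 8, while null reached 21.6 at day 6 and 111.5 at day 8. Dppa3 (Stella), a factor of naive ES cells and germ cells that protects maternal DNA methylation, read 75 and 95 against 6, 6, 6, 9 and 9 (-2.99, SE 0.458, adjusted p = 0.00168). Its means at day 0 were 1872 in Fl/Fl and 1221 in null, and at day 6 Fl/Fl stood at 23.5.

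Psors1c2 read 136 and 99 in Fl/Fl and 28, 20, 13, 13 and 18 in null (-2.46, adjusted p = 0.00684), and Rasef, a Rab family GTPase, read 45 and 60 against 11, 11, 11, 14 and 13 (-1.81, adjusted p = 9.47e-06). Both had means between 8.5 and 18.4 in every other group. Pdgfrl, a receptor-like relative of PDGF receptors, read 239 and 190 against 79, 160, 27, 29 and 27 (-2.03, adjusted p = 0.0282), with replicate 2 close to Fl/Fl. Slc25a14, a mitochondrial carrier, read 228 and 234 against 72, 68, 75, 67 and 47 (-1.77, adjusted p = 0.000106). Scml2, a Polycomb-associated protein best known from male germ cells, read 38 and 65 against 11, 20, 11, 10 and 11 (-1.73, adjusted p = 4.52e-06). Misp3 read 29 and 46 against 8, 9, 9, 9 and 9 (-1.67, adjusted p = 1.28e-05).

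The pattern of a Fl/Fl day 4 maximum was common among the lower genes. In 47 of the 71 (66.2%) the Fl/Fl day 4 mean was the highest of the 10 groups, compared with 841 of all genes (4.62%). In 24 of the 71 every null group mean, at any day, was below 50% of the Fl/Fl day 4 mean, and 51 genes of the whole table met that condition. These counts describe the called genes and are not tests, because the calls used the same Fl/Fl day 4 arrays. Of the 15 higher genes, 6 (40%) had their maximum in null day 6, compared with 648 of all genes (3.56%). This count is likewise no test, because the calls used the same null day 6 arrays.

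**Figure D4:**
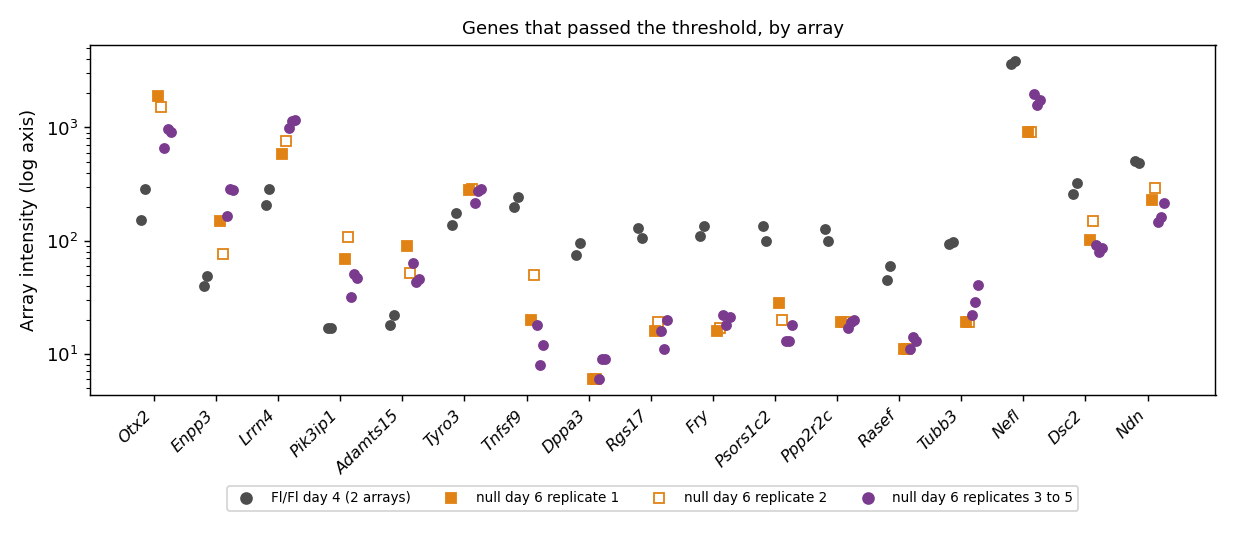
Intensity (log axis) of 17 genes called between null day 6 and Fl/Fl day 4, 6 higher on the left and 11 lower on the right, with 1 point per array and the same marks as in the plot of streak genes. Rgs17, Fry, Ppp2r2c and Rasef have all 5 null arrays between 11 and 22, while the 2 Fl/Fl arrays are between 45 and 135.

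Tubb3 was the called member of the neural list, which as a whole, chosen for neural progenitors and early neurons, had 1 of 28 genes called and a median of 0.00. The other genes of this and the next paragraph are single genes of the 71, chosen after their values were seen, and form no list. Tubb3, a neuronal tubulin, read 94 and 98 in Fl/Fl day 4 and 19, 19, 22, 29 and 41 in null day 6 (-1.79, SE 0.312, adjusted p = 0.00585). Nefl, the light neurofilament, was the brightest of them at 3619 and 3897 in Fl/Fl and 915, 907, 1988, 1588 and 1750 in null (-1.47, SE 0.319, adjusted p = 0.0415). Its lowest null arrays were replicates 1 and 2. Syp, a synaptic vesicle protein, read 42 and 43 against 19, 16, 18, 16 and 15 (-1.16, SE 0.111, adjusted p = 4.52e-06).

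Gpm6a, Gal and Ptprn, a neuronal membrane glycoprotein, the neuropeptide galanin and a protein of secretory granules, were at 67 and 36, 23 and 33, and 38 and 62 in Fl/Fl day 4. In null day 6 they lay at 16 to 17, 8 to 19 and 16 to 26. Clstn1 (calsyntenin) read 707 and 851 against 319, 419, 356, 466 and 416, and Bex4 4042 and 3692 against 2083, 2251, 2322, 2274 and 2530. Slc6a15, an amino acid transporter of neurons, read 89 and 99 against 39, 13, 33, 39 and 41, but its null day 4 mean of 274.6 was above every Fl/Fl day.

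Further single genes of the 71 were likewise chosen after their values were seen and form no list. Wnt5b, a Wnt ligand, read 101 and 132 in Fl/Fl day 4 and 78, 61, 41, 21 and 27 in null day 6. Pgf, a ligand of the VEGF family, read 36 and 26 against 7, 12, 7, 11 and 7. Ghr, the growth hormone receptor, read 769 and 709 against 259, 323, 280, 305 and 367. Their log2 differences were -1.41, -1.46 and -1.27, with adjusted p of 0.026, 0.000139 and 0.0295. The Ghr probe sets not used differed by less, -0.455 and -0.736, with limma adjusted p over all probe sets of 0.963 and 0.689. Ghr also lost the call with the mean of all probe sets. Loxl4, which crosslinks collagen, Lamb3, a laminin chain, and Il33, a cytokine, fell by 1.38, 0.97 and 1.59 on the log2 scale. Tdrd5, a germ cell gene of the piRNA pathway, read 111 and 70 against 47, 41, 35, 19 and 33, and Klf9 1059 and 1014 against 690, 642, 555, 526 and 607.

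Calls of the lower genes held unevenly when arrays were left out. Tnfsf9, Dppa3, Rgs17, Fry, Ppp2r2c, Rasef, Slc25a14, Scml2 and Misp3 were called in all 7 such fits, with a highest adjusted p of 0.0243 for Dppa3 and 1.63e-07 for Rgs17, as were Syp, Gpm6a, Bex4, Pgf and Il33. Without Fl/Fl day 4 replicate 1, Psors1c2 reached 0.12, Pdgfrl 0.289, Tubb3 0.0588, Nefl 0.208, Slc6a15 0.213, Ghr 0.261, Loxl4 0.0577, Klf9 0.0594 and Tdrd5 0.085. Without replicate 2, Ptprn reached 0.173, Clstn1 0.0829, Gal 0.0842, Wnt5b 0.199 and Lamb3 0.17. Pdgfrl, Nefl, Slc6a15, Wnt5b and Ghr also lost the call without at least 1 of the null arrays. With replicates 1 and 2 as the null day 6 group Psors1c2 (0.0922), Pdgfrl (0.0946), Ghr (0.0812) and Klf9 (0.0614) were not called, and with replicates 3 to 5 Nefl (0.0768) and Ghr (0.0526) were not. When only the 2 groups were fitted, 11 of the 44 named genes that were called passed, namely Dppa3, Rgs17, Fry, Psors1c2, Ppp2r2c, Rasef, Slc25a14, Misp3, Syp, Bex4 and Ghr. Tnfsf9, Scml2, Gpm6a, Pgf and Il33 were among those that did not.

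Gene lists by role were then read against the 0.473% of all genes that were called. Limma's unadjusted p was under 0.05 for 2.93% of all genes in the higher direction and 6.28% in the lower. The primitive streak list, with its 0 of 31 called, had a median log2 difference of 0.13 against 0 over all genes. In null day 4 against Fl/Fl day 4 the same list had 14 genes lower and 0 higher (11.6% of all genes called), with a median of -0.93, and in null day 6 against Fl/Fl day 6 it had 7 higher and 1 lower (9.93% of all genes called), with a median of 0.47. Cdx2, a caudal factor of posterior streak and trophoblast, was the streak gene nearest to the threshold, at 32 and 68 in Fl/Fl and 20, 31, 15, 16 and 20 in null (-1.10, SE 0.25, adjusted p = 0.0538). The later mesoderm list had 0 of 29 called, with unadjusted p under 0.05 for 7 higher and 0 lower, and its summed intensity was 1297 to 1617 in Fl/Fl, 4453 to 4680 in null replicates 1 and 2 and 1126 to 1363 in replicates 3 to 5.

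Pluripotency genes had 1 of 32 called, Dppa3, with a median of -0.18. In 8 of them all null arrays lay below Fl/Fl and in 3 above, against 8.83% and 3.71% of all genes. Zfp42 (Rex1), a marker of naive cells, read 48 and 54 in Fl/Fl and 27, 21, 26, 17 and 31 in null (-0.97, adjusted p = 0.277). Dppa5a, chosen after its values were seen, read 2788 and 2898 against 179, 147, 750, 1058 and 948, and did not pass with all null arrays (-2.62, adjusted p = 0.0795) nor with replicates 3 to 5 (0.0973), but did with replicates 1 and 2 (0.000315). The germ cell list had 1 of 23 called, also Dppa3.

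Among 29 junction and keratin genes measured, 2 were called lower, Dsc2 and Cldn3, and 0 higher. In 15 of the 29 every null array lay below both Fl/Fl arrays, against 8.83% of all genes, with a list median of -0.56. Dsc2, a desmosomal cadherin, read 260 and 321 in Fl/Fl day 4 and 102, 150, 91, 79 and 87 in null day 6 (-1.50, SE 0.313, adjusted p = 0.0282). Cldn3, a claudin of tight junctions, read 99 and 116 against 45, 59, 49, 43 and 37 (-1.15, SE 0.229, adjusted p = 0.0209). Without Fl/Fl day 4 replicate 2 their adjusted p was 0.194 and 0.162, and neither was called without replicate 1 or with replicates 1 and 2 as the null day 6 group (0.25 and 0.155). Dsc2 also lost the call without null replicate 3, 4 or 5.

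Desmoplakin (Dsp), which anchors keratin at desmosomes, read 4916 and 4693 in Fl/Fl and 2183, 3931, 2277, 1665 and 1822 in null. All null arrays were lower, and the difference of -1.08 (SE 0.49) had an adjusted p of 0.488. Krt8 and Krt18, the keratins of simple epithelia, overlapped between the groups, with Krt8 at 13147 and 14298 in Fl/Fl and 8638 to 17702 in null and null replicate 2 the highest array of both genes. Lgals3 (galectin 3) read 2364 and 2583 against 889, 1577, 1623, 1163 and 1051 (-1.01, adjusted p = 0.514). At day 4 in both genotypes, 20 of the 29 genes were lower in null and 2 higher (7.43% and 4.18% of all genes), with a median of -1.91, and at day 6 9 were lower and 2 higher (6.46% and 3.47%), with a median of -0.71.

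Contractile genes had 0 of 21 called and 0 with an unadjusted limma p under 0.05. Acta2, smooth muscle actin, read 4406 and 4196 in Fl/Fl and 2329, 6323, 4091, 3803 and 3521 in null, and Tagln, an actin-binding protein, 10657 and 10524 against 7951, 10690, 11585, 10905 and 10796. Both pairs of groups overlapped, with log2 differences of -0.17 and -0.04. The same list had 17 lower at day 4 and 7 lower at day 6, against 7.43% and 6.46% of all genes. In the fibroblast list 0 of 29 were called, 6 lower and 0 higher had an unadjusted limma p under 0.05, and 8 had all null arrays below Fl/Fl, against 6.28% and 8.83% of all genes in those directions. Col1a1, a chain of type I collagen, read 214 and 225 against 41, 39, 58, 59 and 82 (-1.95, SE 0.564, adjusted p = 0.139), and its list had 16 genes lower and 0 higher at day 6, against 6.46% and 3.47% of all genes.

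Among 27 Polycomb genes 1 was called. Pcgf5, a subunit of variant PRC1, read 270 and 301 in Fl/Fl day 4 and 113, 115, 217, 128 and 172 in null day 6 (-0.96, SE 0.211, adjusted p = 0.0425), and its null means ran from 131.6 to 176.3 over the 5 days. Without Fl/Fl day 4 replicate 2 its adjusted p was 0.215, and it also lost the call without Fl/Fl replicate 1 or null replicate 1, 2 or 4. Pcgf5 was also not called with quantile normalization, the mean of all probe sets, the replicate block or only the 2 groups in the fit. A dimmer Pcgf5 probe set, at means of 18.5 in Fl/Fl day 4 and 13.4 in null day 6, differed by -0.389. Its limma adjusted p over all probe sets was 0.915. The core PRC2 genes Ezh2, Eed and Suz12 were not called. Among 28 imprinted genes Ndn, which encodes necdin, was called, at 509 and 485 against 231, 292, 146, 161 and 216 (-1.28, SE 0.211, adjusted p = 0.00386; without Fl/Fl replicate 1, 0.0548). Ndn was called with either set as the null day 6 group (0.000297 and 0.037), and Pcgf5 with replicates 1 and 2 (0.00145) but not with 3 to 5 (0.0838).

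Lists of derived cell types and of cell state had no called genes. They were the Hox (33 genes), cardiac and vascular (22), endoderm (32), trophoblast (20), cell cycle (35), glycolysis and hypoxia (22), p53 and stress (22) and X and Y chromosome (8) lists. Genes with limma's unadjusted p under 0.05 are given as higher and lower, to be read against 2.93% and 6.28% of all genes. They were 0 and 2 for Hox, 0 and 0 for cardiac, 4 and 1 for endoderm and 0 and 5 for trophoblast. For cell cycle they were 2 and 4, for glycolysis 1 and 6, for p53 0 and 5 and for chromosome genes 0 and 1. All null arrays lay below Fl/Fl for 8 p53 and 4 trophoblast genes and above for 0, against 8.83% and 3.71% of all genes. Gata6, an endoderm and mesoderm factor, read 62 and 73 in Fl/Fl and 379, 416, 47, 39 and 63 in null, and Sox17, a definitive endoderm factor, read 8 and 8 against 49, 138, 8, 8 and 8. Both were above Fl/Fl in null replicates 1 and 2 and at Fl/Fl level or slightly below in the rest.

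**Figure D5:**
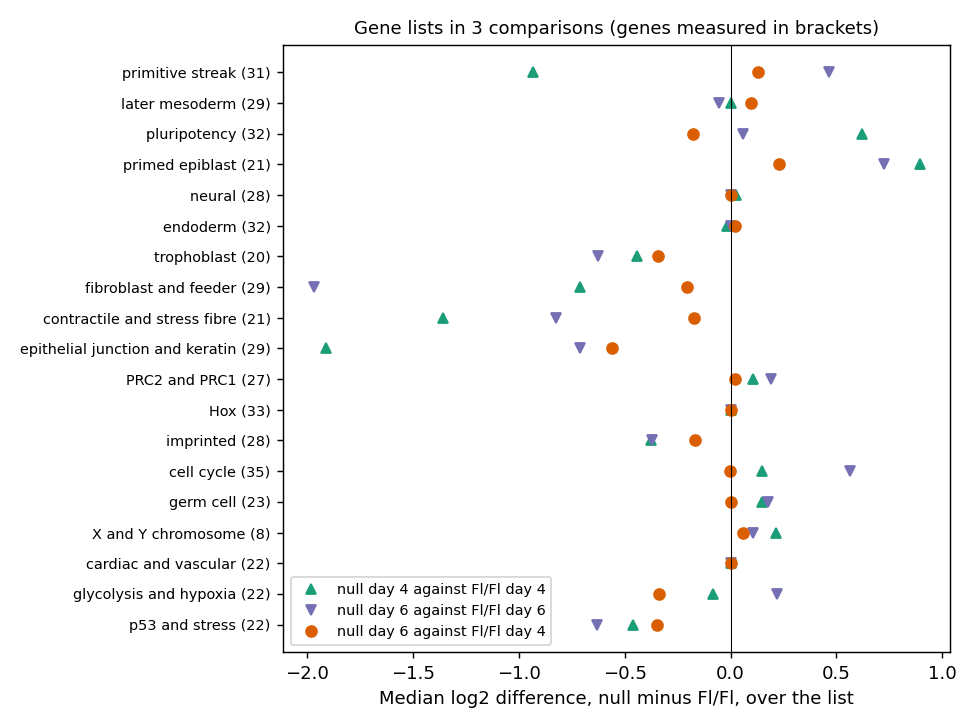
Median log2 difference, null minus Fl/Fl (horizontal axis), over the measured genes of each of 19 lists, for null day 4 against Fl/Fl day 4 (upward triangles), null day 6 against Fl/Fl day 6 (downward triangles) and null day 6 against Fl/Fl day 4 (circles). The stage-matched medians lie between -0.562 (epithelial junction and keratin) and 0.23 (primed epiblast), and the day 4 medians between -1.91 and 0.893.

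Lists were also counted with each set of arrays as the null day 6 group and the other groups whole. With replicates 3 to 5, 2 of 22 glycolysis genes were called lower and 0 higher (0.929% and 0.308% of all genes), with a median of -0.61 and an unadjusted limma p under 0.05 for 12 lower and 1 higher (8.25% and 4.24% of all genes). With replicates 1 and 2 limma called 0 of the 22, with an unadjusted p under 0.05 for 0 lower and 1 higher (3.9% and 3.86% of all genes), and a median of 0.05. Pgk1, Ldha and Aldoa, enzymes of glycolysis picked after their values were seen, read 5871, 5451 and 5827, then 8766, 9471 and 9144, then 4753, 5388 and 5467 in null replicates 3 to 5. The same 3 genes read 11806, 20331 and 10664 in null replicate 1 and 9088, 18220 and 8931 in replicate 2, and the Fl/Fl day 4 ranges were 10669 to 11252, 15055 to 15791 and 7577 to 8713. With replicates 3 to 5 none of the 3 was called (limma adjusted p of 0.202, 0.308 and 0.167). With null arrays above 500 for Eif2s3y at every day, all 3 were called lower (0.00366, 9.61e-05 and 0.015). The glycolysis list then had 9 of 22 called lower and 1 higher, against 10.1% of all genes called.

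Junction genes had 2 lower and 0 higher called with replicates 3 to 5 (median -0.51) and 0 called with replicates 1 and 2 (median -0.62, unadjusted limma p under 0.05 for 1 higher and 6 lower). Streak genes had 0 higher and 1 lower with replicates 3 to 5 (median -0.14) and 2 higher and 0 lower with replicates 1 and 2 (median 0.48). The later mesoderm list had 1 of 29 higher with replicates 3 to 5 and 6 higher with replicates 1 and 2, and the endoderm list had 0 of 32 called with the first, by limma, with an unadjusted p under 0.05 for 1, and 7 higher with the second. Called higher were 0.308% of all genes in the first fit and 0.517% in the second, and called lower were 0.929% and 0.319%. Limma's unadjusted p was under 0.05 for 4.24% of all genes higher and 8.25% lower in the first fit. In the second fit these shares were 3.86% and 3.9%. Gata6 (adjusted p = 0.00101) and Sox17 (0.000935) were among the genes called with replicates 1 and 2. These calls depended on the fit. With null arrays of 500 or below for Eif2s3y at every day, neither was called (limma adjusted p of 0.075 and 0.0564). There limma called 0 streak, 2 later mesoderm and 0 endoderm genes higher, against 38 of all 18194 genes called higher. With null arrays above 500 at every day, 11 junction genes were lower and 2 higher, and 7 streak genes each way, against 10.1% of all genes. The sets hold 3 and 2 arrays, and the difference between them was not tested.

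The 86 genes were last read in comparisons that share no array with the stage-matched one. These were null against Fl/Fl at day 0 and at day 2, and null day 4 against Fl/Fl day 2 and null day 8 against Fl/Fl day 6, which keep the lag of 2 days between the genotypes. The labels do not say whether arrays of different days come from the same line. High Eif2s3y and Tmem87a with low Meg3, as in null day 6 replicates 3 to 5, recurred on earlier days. Null replicates 2 and 3 at day 0 and replicates 3 to 5 at days 2 and 4 had these levels, and no null day 8 array did. A further kind of null array also recurred, with Eif2s3y at 11 to 16 and Meg3 at 287 to 578. It was seen in null replicate 1 at day 2 and in null replicate 2 at days 4, 6 and 8. Sharing no array thus does not make these comparisons independent, and the part of the sets in them was not tested. Of the 71 lower genes, 50 were lower in null at day 0 and 51 at day 2, shares of 70.4% and 71.8% against 50.8% and 45% of all genes and 55.5% and 58.7% of genes with a mean intensity above 100. For null day 4 against Fl/Fl day 2 the number was 43 (60.6%, against 49.7% of all and 59.8% of the brighter genes), and for null day 8 against Fl/Fl day 6 it was 53 (74.6%, against 41.3% and 66.9%). Called lower were 0.929% of all genes at day 0, 0.517% at day 2, 1.37% for null day 4 against Fl/Fl day 2 and 0.407% for null day 8 against Fl/Fl day 6. Of the 71, called in the same direction were 2 at day 0 (Magef1 and Pcgf5), 4 at day 2 (Bex4, Ghr, Syp and Wipf3), 7 for null day 4 against Fl/Fl day 2 and 11 for null day 8 against Fl/Fl day 6. The 11 included Tnfsf9, Ppp2r2c, Pgf, Clstn1 and Loxl4. Ghr and Nefl were called higher in null day 4 than in Fl/Fl day 2.

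Of the 15 higher genes, 11 were higher in null at day 0, 10 at day 2, 12 for null day 4 against Fl/Fl day 2 and 10 for null day 8 against Fl/Fl day 6, against 34.7%, 41.4%, 35% and 31.2% of all genes and 44.5%, 41.3%, 40.2% and 33% of the brighter ones. Otx2 and Tyro3 were called at day 0, Ssu72 and Tyro3 at day 2, and Ccnjl, Cst3 and Tyro3 for null day 4 against Fl/Fl day 2. For null day 8 against Fl/Fl day 6 limma called 0 of the 15, with an unadjusted p under 0.05 for 4 higher and 1 lower, Ccnjl. Called higher in these 4 comparisons were 0.247%, 0.104%, 0.346% and 0.055% of all genes. All called genes numbered 214 (1.18%) at day 0 and 113 (0.621%) at day 2, and with the lag of 2 days 313 (1.72%) for null day 4 against Fl/Fl day 2 and 84 (0.462%) for null day 8 against Fl/Fl day 6.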

How the data were processed

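The values are intensity per probe set as deposited by the authors, 1 column per array and in whole numbers from 1 to 68951. Per the labels, biotin-labelled cRNA made from total RNA was hybridized to Affymetrix arrays, while how the arrays were normalized and summarised is not stated there. Of 45101 probe sets, 34958 with 1 gene in the platform annotation were kept, and 932 with several genes and 9211 with none were left out. The brachyury gene T is not analysed here. No further normalization was applied. The medians of the arrays lay within 0.0995 (log2) of each other. These medians were 10 or 11, at the floor, so they cannot show whether brighter genes share a scale across arrays. The upper quartile of the arrays ran from 82 in null day 0 replicate 2 to 106 in Fl/Fl day 6. With quantile normalization 14 of the 86 genes were not called, and the calls were 25 higher and 65 lower. A linear model with a mean for each of the 10 groups was fitted to log2(intensity + 4) of the 30 arrays with limma 3.58.1 (R 4.3.3; 20 residual degrees of freedom), which assumes that every group varies alike, and p-values were adjusted by Benjamini-Hochberg over 18194 genes.

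The members and the 19 gene lists (461 genes measured) were chosen with earlier results of these data known. The genes named are fixed markers, the 12 largest rises and falls among called genes whose groups do not overlap, up to 4 called members per list, genes also called the same way at days 0 and 2, and a few said to be chosen after their values were seen. The number of arrays limits the precision. On simulated data the fit of this comparison recovered 60% of 100 genes changed by 1 on the log2 scale and 93% of 100 changed by 2, with 9 unchanged genes called, over 18194 genes. The changed genes had a mean intensity above 100, and noise was normal with 1 spread per gene and no sets of null arrays. Of the 71 lower genes, 58 had a null day 6 mean under 100. These figures therefore do not give the recovery or false calls of the data. Promoter windows are RefSeq's (GRCm38.p6). The alternatives were other pseudocounts, a filter on low values, quantile normalization, centring on bright genes, means over probe sets, a trended robust fit, the replicate number as a block, only the 2 groups in the fit, each set of null arrays at day 6 or at every day, and each array left out. The sets at day 6 and the comparisons with a lag of 2 days were added after counts were seen.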

Additional observations from a re-analysis of the deposited data

Results flagged for a closer look

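Among the 79 genes named, 8 had an array that met Dixon's criterion against the other 4 of the null day 6 group, where chance flags about 1 in 20 groups. The high arrays were replicate 1 for Mesp1, a streak and early mesoderm factor, at 292 (the others at 11 to 23), replicate 2 for Scml2 at 20 and replicate 4 for Gal at 19. The low arrays were replicate 1 for Tagln at 7951 and for Misp3 at 8 (the others at 9, 1 unit away at the floor), replicate 2 for Slc6a15 at 13, replicate 3 for Tyro3 at 216 and replicate 5 for Slc25a14 at 47. The change from day 4 to day 6 differed between the genotypes in 378 genes by limma's test of that difference, 216 with the larger value in null and 162 with the larger value in Fl/Fl.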

How the results depend on the processing

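The count of 86 genes for null day 6 against Fl/Fl day 4 ran from 69 to 1838 over 13 alternatives and was within 1.5 times of 86 in 9 of them. The exceptions were the mean of all probe sets, with 155 genes, null replicates 3 to 5 (Eif2s3y above 500) and replicates 1 and 2 at day 6 with the other groups whole, with 225 and 152, and null arrays above 500 at every day, with 1838. Quantile normalization gave 25 higher and 65 lower genes, and fitting only the 2 groups gave 103 genes, 25 of them among the 86. Leaving out 1 array gave 66 to 174 genes here, 895 to 2185 for null against Fl/Fl at day 4 and 303 to 677 for Fl/Fl day 6 against day 4, with the low values of the last 2 and the 174 coming without an Fl/Fl day 4 array.

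With only null arrays above 500 for Eif2s3y at every day, the counts were 4457 for null against Fl/Fl at day 4, 4197 at day 6, 2601 at day 0, 1902 at day 2, 5037 for null day 6 against Fl/Fl day 2 and 2348 for Fl/Fl day 6 against day 4. In the same setting Gsc (-1.042) and Aplnr (-1.124) turned lower. With null arrays of 500 or below at every day they were 925 at day 4, 308 at day 6, 364 at day 0, 53 at day 2, 2884 for null day 6 against Fl/Fl day 8 and 766 for null day 6 against null day 4. At day 0 the count of 214 became 113 when the dimmest 40% of genes were dropped, 126 with centred arrays and 123 with only the 2 groups fitted.

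With the replicate number as a block, 77 genes were called, 20 higher and 57 lower, 55 of them among the 86, and the day 2 count fell from 113 to 61. Deviations of same-numbered Fl/Fl day 4 and null day 6 arrays had r of -0.0576 and 0.0529. With 2 Fl/Fl arrays their deviations mirror each other, so this check cannot show whether numbers link arrays across days. Within null, replicates 3 to 5 had Eif2s3y above 500 at days 2, 4 and 6 alike. Replicates 1 and 2 read 16 and 290 at day 2, but 218 and 12 at day 4 and 217 and 13 at day 6. At day 0 null replicate 2 read 768. The block by number thus joined null arrays with unlike Eif2s3y levels. The main fit did not pair arrays by number. Of the 44 named genes that were called, 6 were called under all 20 settings (Dppa3, Rgs17, Ppp2r2c, Rasef, Slc25a14 and Syp). The causes of these changes were not tested. With 2 Fl/Fl arrays per day, differences of 1 on the log2 scale can be missed, and genes near the floor have folds that are too small.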
